A study of Mus musculus with 18 samples.

Results

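Spectrins and ankyrins were described through 7 genes of the panRNA transcript table: the α-spectrin gene *Sptan1*, the β-spectrin genes *Sptb*, *Sptbn1* and *Sptbn4*, and the ankyrin genes *Ank1*, *Ank2* and *Ank3*. All entries carrying one of these names were summed per library, which gave 7 of the 35823 gene symbols in the table. The libraries came from brains of WT mice and of Atxn2-CAG100-KIN mice, a model with a CAG expansion knocked into *Atxn2* for spinocerebellar ataxia type 2 (SCA2). All mice were 10 months old and untreated, and the study describes the KIN mice as homozygous and the WT mice as their littermates on a C57BL/6 background. From each brain, microglia (CD11b beads), astrocytes (ACSA-2 beads) and then neurons (depletion of non-neuronal and CD31-positive cells) were isolated in sequence by magnetic sorting (MACS), so the neuronal fraction is what the beads left behind. Each of the 3 fractions has 3 WT and 3 KIN libraries, 18 in all, labelled as biological replicates. The mice were both male and female, and which library came from which sex was not given in the sources used here. Because the 3 fractions came from the same brains, libraries of different fractions are not independent.

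Spectrins are long, rod-shaped proteins that pair as an α and a β chain and join into tetramers, which crosslink short actin filaments into a membrane skeleton. Ankyrins clip this skeleton to ion channels and cell adhesion molecules. In neurons, *Sptan1* with *Sptbn1* (αII and βII spectrin) forms the periodic skeleton of the axon, while *Sptbn4* (βIV spectrin) and ankyrin-G (*Ank3*) gather sodium and potassium channels at the axon initial segment and the nodes of Ranvier. Ankyrin-B (*Ank2*) acts along the axon shaft, and *Sptb* and *Ank1* encode the erythrocyte forms of β-spectrin and ankyrin, both of which neurons also express. In both *Ank2* and *Ank3* a single very long exon, known as the giant exon, is spliced into the forms made mainly by neurons.

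The members lie on 7 chromosomes of GRCm39 (mm39). *Sptan1* spans chr2:29855328-29921463 on the plus strand, *Ank2* chr3:126715261-127292999 on the minus strand and *Sptbn4* chr7:27055808-27147111 on the minus strand. *Ank1* spans chr8:23464860-23640513 (plus), *Ank3* chr10:69234603-69863268 (plus), *Sptbn1* chr11:30049394-30218191 (minus) and *Sptb* chr12:76627247-76757321 (minus). The table listed 128 member transcripts, of which 121 had a count, and together they collected 4632 counts. *Ank3* had the most (1204), followed by *Ank2* (1113), *Sptan1* (904) and *Sptbn1* (895), while *Sptbn4* (219), *Sptb* (174) and *Ank1* (123) were sparse. Counting ignored strand, so *Cdk1* (15 counts in all), which overlaps the start of *Ank3* on the opposite strand, cannot be fully separated from it, while *Dync2i2* and *Plekhg3* meet *Sptan1* and *Sptb* only at a few end bases.

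The giant exons serve here as landmarks to group the transcripts that hold them. Counts are per transcript entry, and these transcripts hold other sequence too. Of the 14307 bases of *Ank2-208*, 6198 lie in the giant exon. How reads were split between these and the other forms is therefore uncertain. The exon of *Ank2* (chr3:126735259-126741456, 6198 bases) occurs in *Ank2-207* and *Ank2-208*. That of *Ank3* (chr10:69821919-69829592, 7674 bases) is whole in *Ank3-244* and partly present in *Ank3-233* (2544 bases) and *Ank3-225* (2759 bases). Transcripts with at least 2000 of its bases were counted as giant-exon forms, which left 3 others of *Ank3*, with 22 to 784 of its bases, in the rest of the gene. The sequences below show the last 30 bases of the preceding exon in lower case and the first 120 bases of the giant exon in capitals, read 5′ to 3′ along the transcript, from the GENCODE vM39 annotation of GRCm39.
Ank2-207: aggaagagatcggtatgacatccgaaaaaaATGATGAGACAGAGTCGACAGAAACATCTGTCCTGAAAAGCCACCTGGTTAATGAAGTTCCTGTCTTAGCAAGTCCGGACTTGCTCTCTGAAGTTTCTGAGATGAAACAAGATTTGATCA
Ank3-244: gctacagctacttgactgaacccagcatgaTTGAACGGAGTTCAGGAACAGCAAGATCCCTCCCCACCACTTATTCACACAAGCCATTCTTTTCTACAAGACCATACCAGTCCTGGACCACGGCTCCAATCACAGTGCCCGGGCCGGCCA

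The 12 glial libraries held between 2118317 and 3296398 counts and the 6 neuronal libraries between 761481 and 2017932, the WT neuronal libraries being the shallowest. Levels are given as CPM (counts-per-million) after TMM scaling over the 18 libraries. The 6 astrocyte markers summed to 198 to 442 CPM in the astrocyte libraries and 7.59 to 17.9 CPM elsewhere, and the 6 microglia markers to 434 to 744 CPM in the microglia libraries and 4.03 to 11.4 CPM elsewhere. The neuronal libraries were less distinct. The 9 neuronal markers summed there to 107 to 179 CPM, beside 35.8 to 135 CPM in the astrocyte and 9.93 to 62.7 CPM in the microglia libraries. Against astrocytes, 3 of the 9 (*Tubb3*, *Gad1* and *Gad2*) were called higher in the neuronal fraction, where 11.5% of all 13552 genes tested were called higher, and 3 (*Syt1*, *Eno2* and *Snap25*) were called lower. In WT neuronal libraries *Snap25* had 3 to 4 counts and *Syt1* 0 to 3. Oligodendrocyte markers were high in the astrocyte fraction (325 to 614 CPM, against 12.3 to 54.4 CPM elsewhere), and the erythroid list was high in the neuronal one (113 to 523 CPM, against 2.98 to 24.1 CPM in glia). In these bulk libraries, fewer cells of a type and less RNA per cell cannot be told apart.

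Across fractions, all members had higher levels in astrocytes than in microglia. By the median over libraries, the neuronal fraction lay between them for each member except *Ank3*, where it was lowest (10.6 CPM, beside 11.7 CPM in microglia and 42.6 CPM in astrocytes). Per kilobase of transcript, the median over the 6 astrocyte libraries was 6.75 CPM per kb for *Ank2*, 5.47 for *Ank3*, 5.27 for *Sptbn1* and 4.09 for *Sptan1*. It was 0.685 CPM per kb for *Sptbn4*, 0.476 for *Ank1* and 0.418 for *Sptb*. With both genotypes pooled, *Ank2*, *Ank3* and *Sptbn1* did not differ beyond the spread between libraries (SD 3.09, 0.405 and 0.574 CPM per kb). Nor did the 3 lower members (SD 1.16, 0.553 and 0.501), but the levels of the first group lay above those of the second. Within WT astrocytes *Ank2* (9.82 ± 1.19) lay above *Ank3* (5.74 ± 0.299) and *Sptbn1* (5.72 ± 0.133). In KIN astrocytes its mean was below theirs (4.38 ± 0.458 beside 5.18 ± 0.289 and 4.73 ± 0.251, SD, n = 3 each). In microglia the order of the medians was *Ank2* (1.79 CPM per kb), *Ank3* (1.5), *Sptan1* (1.43), *Sptbn1* (1.04), *Sptbn4* (0.253), *Ank1* (0.182) and *Sptb* (0.107). In the neuronal fraction it was *Ank2* (2.43), *Sptan1* (2.39), *Sptbn1* (1.74), *Ank3* (1.36), *Sptb* (0.410), *Ank1* (0.347) and *Sptbn4* (0.296). The library kit is named for transcript 3′ ends while the protocol polyadenylates all RNA molecules, so an order per length is only a description.

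**Figure D1:**
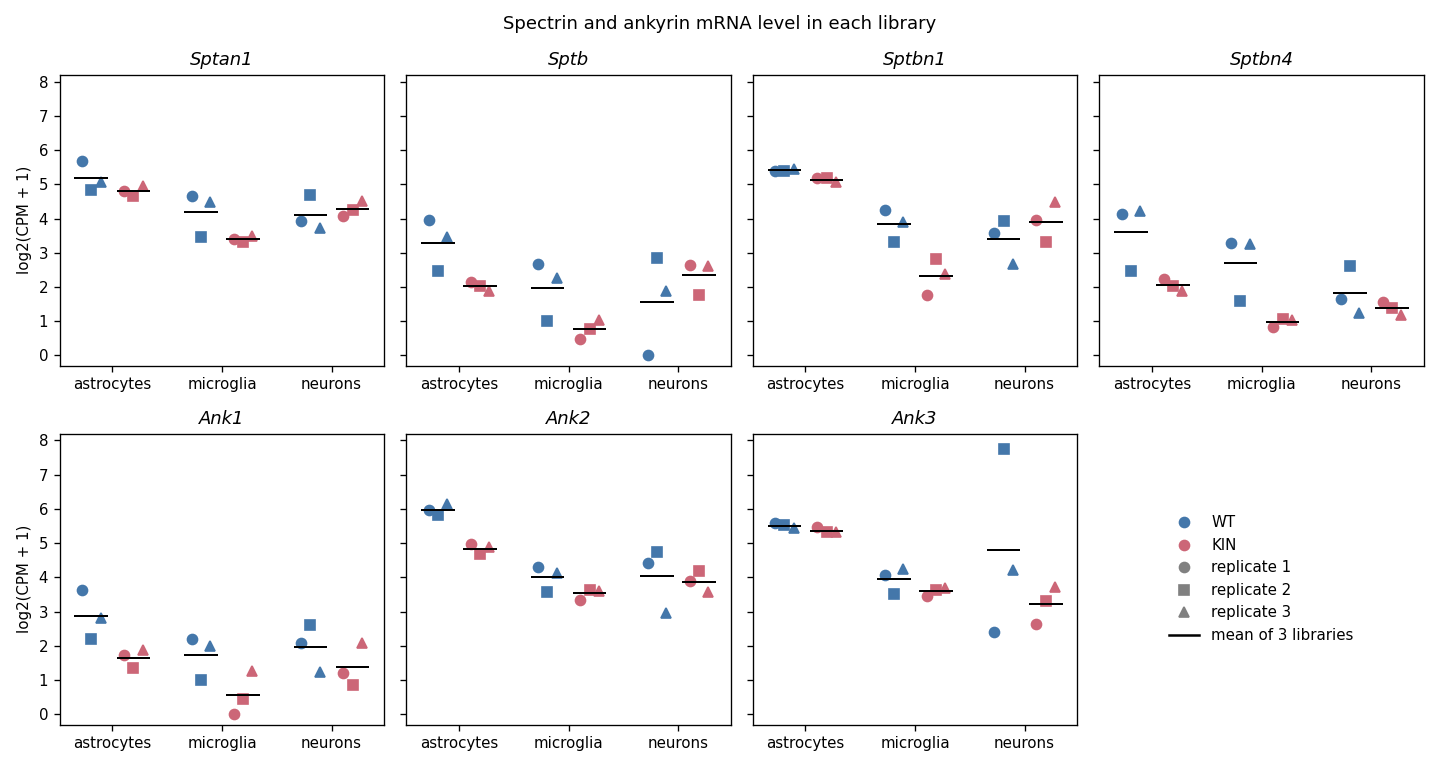
Level of each member in every library, as log2 of CPM + 1 (TMM-scaled), by fraction and genotype, with one point per library and a line at the mean of 3 libraries. *Ank3* in WT neurons replicate 2 reached 214 CPM, while the other 5 neuronal libraries had 4.34 to 17.5 CPM.

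All 7 members were called higher in astrocytes than in microglia, where 18.2% of the 13552 genes tested were called higher. A gene was called when its adjusted *p* was at most 0.05 and its log2 fold change at least 1 in size. The differences on the log2 scale were 2.27 for *Sptbn1* (SE 0.210, adjusted *p* = 3.46e-18), 1.72 for *Ank3* (SE 0.261, adjusted *p* = 1.13e-08), 1.68 for *Ank2* (SE 0.193, adjusted *p* = 3.09e-13) and 1.22 for *Sptan1* (SE 0.197, adjusted *p* = 6.84e-08). For *Sptbn1* this averages 1.56 with WT libraries only and 2.99 with KIN libraries only in the contrast. The sparse members differed by 1.69 (*Sptb*, SE 0.384), 1.56 (*Ank1*, SE 0.428) and 1.30 (*Sptbn4*, SE 0.353), with adjusted *p* between 0.000117 and 0.00151. In counts, *Sptbn1* ranged from 69 to 136 in astrocyte libraries and from 6 to 61 in microglia libraries, and *Ank3* from 77 to 149 and from 21 to 53. The marker sums above show that astrocyte libraries also carried more neuronal and oligodendrocyte marker RNA than microglia libraries did, and the part of that RNA in the members' difference was not tested.

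Against astrocytes, *Sptbn1*, *Sptbn4* and *Ank2* were lower in the neuronal fraction, where 19.3% of the genes tested were called lower and the median of all genes was -0.27. The log2 differences were -1.58 for *Sptbn1* (SE 0.224, adjusted *p* = 2.35e-09), -1.52 for *Sptbn4* (SE 0.429, adjusted *p* = 0.00283) and -1.39 for *Ank2* (SE 0.212, adjusted *p* = 2.39e-08). *Sptbn4* had only 1 to 5 counts per neuronal library, and with KIN libraries only in the contrast its call was lost (-0.963). *Sptan1* differed by -0.81 (adjusted *p* = 0.00132) and *Ank3* by -0.67 (adjusted *p* = 0.0484), both under the fold threshold. Without WT neurons replicate 2 these were -1.01 and -2.15, and both were called. *Ank1* (-0.63) and *Sptb* (-0.58) did not pass the test. Against microglia, *Ank3* was the 1 member called higher in neurons (1.05, SE 0.309, adjusted *p* = 0.00446, with 10.2% of genes called higher), and without WT neurons replicate 2 its difference was -0.43. DESeq2 did not call it. *Sptb* differed by 1.11 (adjusted *p* = 0.0775), *Ank1* by 0.92, *Sptbn1* by 0.70 (adjusted *p* = 0.0358), *Sptan1* by 0.41, *Ank2* by 0.29 and *Sptbn4* by -0.22.

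**Figure D2:**
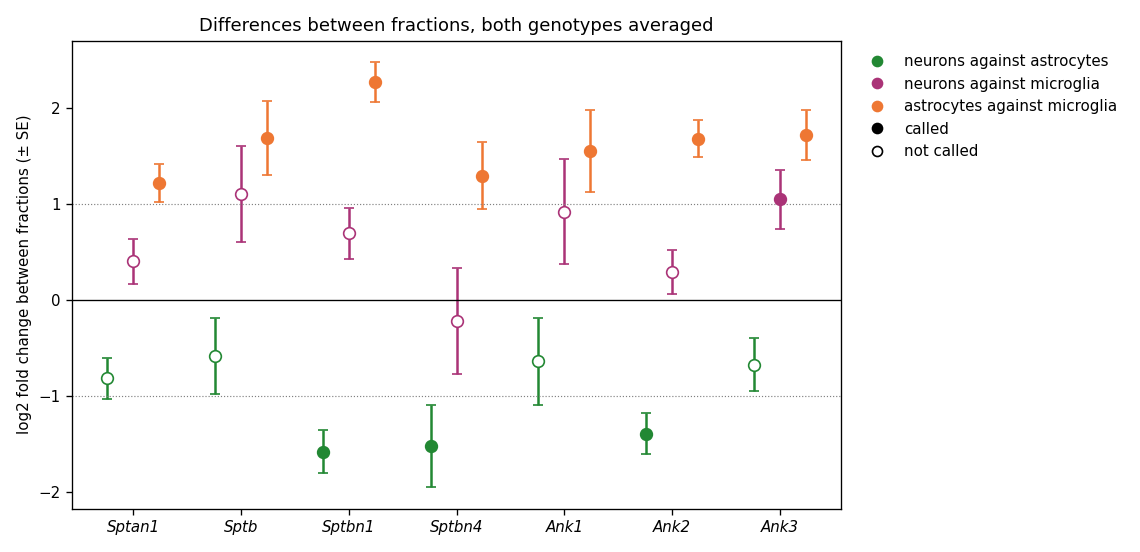
Log2 difference of each member between fractions with bars of 1 standard error (edgeR, 18 libraries, both genotypes averaged). Filled points were called and dotted lines mark the fold threshold. All members lie above 0 for astrocytes against microglia, between 1.22 and 2.27.

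KIN was then compared with WT within each fraction, the question the study set for all its transcripts. In astrocytes 4 of the 7 members were lower in KIN: *Sptbn4*, *Sptb*, *Ank1* and *Ank2*. Of all 11751 genes tested there, 6.42% were called lower and the median log2 fold change of all genes was -0.0042, beside -1.17 for the members. The most abundant of them, *Ank2*, had 173, 170 and 224 counts in the WT libraries and 105, 48 and 74 in the KIN libraries. After scaling, the WT and KIN libraries did not overlap, at 62.2 ± 7.54 CPM in WT and 27.7 ± 2.90 CPM in KIN (SD, n = 3 each), a log2 fold change of -1.17 (SE 0.213, adjusted *p* = 0.000129). The genes of the erythrocyte forms were also lower in KIN. *Sptb* had 41, 14 and 32 counts in WT and 12, 6 and 7 in KIN, a log2 fold change of -1.63 (SE 0.362, adjusted *p* = 0.0014). *Ank1* had 32, 11 and 19 counts in WT and 8, 3 and 7 in KIN (-1.61, SE 0.406, adjusted *p* = 0.00484). *Sptbn4*, the nodal β-spectrin, had 47, 14 and 56 counts in WT and 13, 6 and 7 in KIN, the largest change of the members (-2.00, SE 0.366, adjusted *p* = 0.000136). For these 3 genes WT replicate 2 was the lowest WT library, yet it still lay above all KIN libraries. Without WT replicate 1, *Sptb* (-1.25) and *Ank1* (-1.11) no longer passed the test, which left 2 members called. DESeq2 without its independent filtering, a setting added after seeing the data, did not call *Ank1*.

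The other 3 members did not pass the test in astrocytes. *Sptan1*, the partner of all β chains, had 142, 85 and 103 counts in WT and 93, 47 and 78 in KIN, at 36.7 ± 11.9 and 26.9 ± 2.93 CPM, a log2 fold change of -0.45 (SE 0.224, adjusted *p* = 0.197) with overlapping ranges. *Sptbn1* had 116, 126 and 136 counts in WT and 123, 69 and 84 in KIN. Its levels, 41.5 ± 0.967 CPM in WT and 34.3 ± 1.82 CPM in KIN (SD, n = 3 each), did not overlap, but the difference was small (-0.29, SE 0.207, adjusted *p* = 0.414). *Ank3* had 133, 138 and 135 counts in WT and 149, 77 and 101 in KIN, and its levels overlapped (44.7 ± 2.33 against 40.3 ± 2.25 CPM, log2 fold change -0.16, SE 0.206, adjusted *p* = 0.697). The plot of KIN effects shows this split, with the sparse β-spectrins, *Ank1* and *Ank2* apart from *Sptan1*, *Sptbn1* and *Ank3*.

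**Figure D3:**
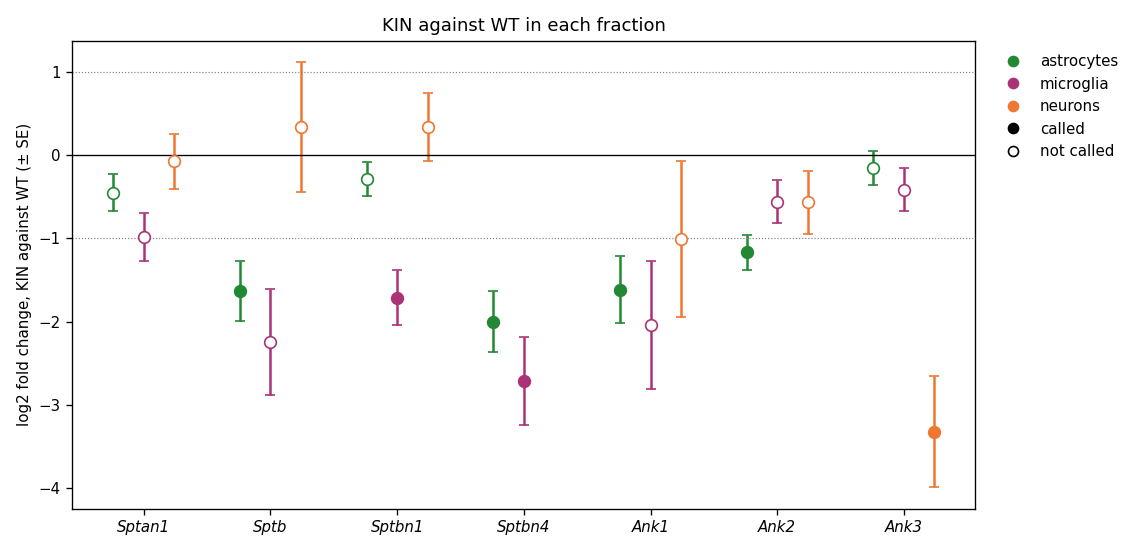
Log2 fold change of KIN against WT for each member in each fraction with bars of 1 standard error (edgeR, 3 libraries per group), where filled points were called and dotted lines mark the fold threshold. In astrocytes the members range from -2.00 to -0.16, and in neurons *Ank3* stands alone at -3.32.

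Marker levels moved with genotype in the same libraries. All 9 neuronal markers were detected in the astrocyte fraction of both genotypes, none being at 0 in every library of a group. Their sum was 46.2 to 135 CPM in WT and 35.8 to 57.5 CPM in KIN astrocyte libraries, with overlap. Of the 9, 7 were called lower, with a median log2 fold change of -2.04 over the list, and DESeq2 called 3. *Gad1*, *Gad2* and *Slc17a7* passed the low-count filter only through the WT libraries, so their differences are no independent evidence of a change. *Tubb3* went the other way, at 7.78 ± 2.25 CPM in WT and 15.2 ± 5.55 CPM in KIN (SD, n = 3 each). *Sptb*, *Sptbn4* and *Ank1* together reached 42.4, 12.7 and 33.6 CPM in WT astrocyte replicates 1, 2 and 3, where the neuronal markers reached 135, 46.2 and 112 CPM. In KIN they reached 9.51, 7.67 and 8.05 CPM, with neuronal markers at 37.2, 35.8 and 57.5 CPM. WT replicate 2, the lowest WT library for these 3 genes, was thus also the lowest for neuronal markers. *Ank2* varied less over the same WT libraries (61.1, 55.3 and 70.2 CPM), *Sptbn1* hardly at all (41.0, 41.0 and 42.6 CPM), and *Ank3* was lowest in WT replicate 3 (42.3 CPM). Astrocyte markers were lower in KIN (198 to 206 CPM against 304 to 442 CPM, with 2 of 6, *Gja1* and *Fgfr3*, called lower) and oligodendrocyte markers were higher (610 to 614 CPM against 325 to 493 CPM). The part of these markers in the members' changes was not tested.

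In microglia *Sptbn1* and *Sptbn4* were called lower in KIN, where 0.785% of the 10831 genes tested were called lower. *Sptbn1*, the β-chain of the general skeleton, had 61, 18 and 33 counts in WT and 6, 17 and 12 in KIN, or 13.7 ± 4.65 against 4.23 ± 1.86 CPM (SD, n = 3 each). Its ranges did not overlap (log2 fold change -1.71, SE 0.329, adjusted *p* = 0.00679). *Sptbn4* had 29, 4 and 20 counts in WT and 2, 3 and 3 in KIN (adjusted *p* = 0.00691). All KIN libraries were at or under 3 counts, the level set as the detection floor in each library. The WT mean of *Sptbn4* lay 5.77-fold above the mean floor of the KIN libraries, though its WT replicate 2 had 4 counts. *Sptbn4*, *Sptb* and *Ank1* passed the low-count filter here only through the WT libraries, so their differences are no independent evidence of a change. The calls were lost in several fits with 1 library left out, while the fold changes stayed below -1.4. *Sptbn1* lost its call without WT replicate 1 (-1.45), KIN replicate 1 (-1.45) or KIN replicate 3 (-1.69), and *Sptbn4* without any 1 of the KIN libraries (-2.78 to -2.61). Without WT replicate 1 or 3 *Sptbn4* was below the filter. DESeq2 without its independent filtering called neither gene.

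The remaining members had no microglial call. *Sptan1* had 82, 20 and 50 counts in WT and 24, 25 and 29 in KIN (-0.99, SE 0.286, adjusted *p* = 0.0807), and its WT replicate 2 lay within the KIN range. *Sptb* had 18, 2 and 9 counts in WT and 1, 2 and 3 in KIN. Its WT mean lay 3.07-fold above the same floor, but WT replicate 2 was itself at the floor. The ranges of *Sptb* overlapped, with an adjusted *p* of 0.0734. *Ank1* had 12, 2 and 7 against 0, 1 and 4 counts (-2.04, SE 0.765, adjusted *p* = 0.223). *Ank2*, with 63, 22 and 39 against 23, 32 and 32 counts, differed by -0.56 (SE 0.262, adjusted *p* = 0.387), and *Ank3*, with 53, 21 and 42 against 25, 32 and 34 counts, by -0.42 (SE 0.261, adjusted *p* = 0.594). The median of all genes was -0.006. Neuronal markers again moved with genotype: their sum was 17.4 to 62.7 CPM in WT and 9.93 to 13.0 CPM in KIN microglia libraries, with 4 of 9 (*Eno2*, *Syt1*, *Snap25* and *Slc17a7*) called lower and a median of -2.20. These 4 passed the low-count filter only through the WT libraries, so their differences are no independent evidence of a change. DESeq2 called 0 of the 9. *Sptb*, *Sptbn4* and *Ank1* together reached 17.6, 3.97 and 15.3 CPM in WT and 1.19, 2.15 and 3.51 CPM in KIN. The lowest WT library for both sums was replicate 2, as in astrocytes. Oligodendrocyte markers (17.4 to 24.2 CPM in WT, 12.3 to 15.8 in KIN) and pericyte markers (1.70 to 2.99 and 0.718 to 1.19 CPM) did not overlap either. Of the endothelial markers 1 of 3, *Cldn5*, was called lower (-2.12, adjusted *p* = 0.0133), while their sum was 37.5 to 49.1 CPM in WT and 46.3 to 50.5 CPM in KIN. The part of these RNAs in the members' changes was not tested.

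**Figure D4:**
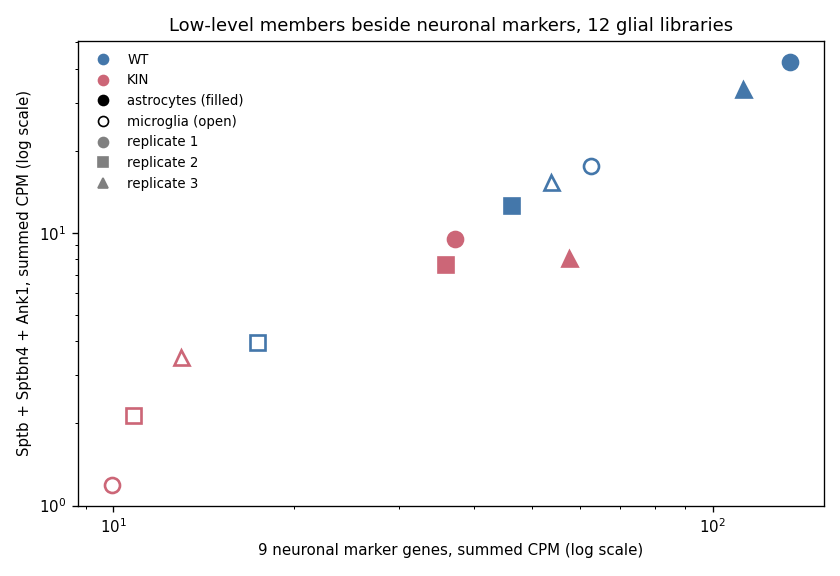
Summed level of *Sptb*, *Sptbn4* and *Ank1* (CPM) against the summed level of the 9 neuronal markers (CPM) in the 12 glial libraries, both on log axes, with one point per library. WT replicates 1 and 3 lie highest on the vertical axis in each fraction, at 42.4 and 33.6 CPM in astrocytes and at 17.6 and 15.3 CPM in microglia.

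In the neuronal fraction 1 of 6 members tested, *Ank3*, was lower in KIN, and only 0.0739% of the 6765 genes tested were called lower. *Ank3* had 4, 209 and 13 counts in WT and 8, 11 and 19 in KIN. Replicate 2 of WT stood at 214 CPM and the other WT libraries at 4.34 and 17.5 CPM, on either side of the KIN libraries (5.24 to 12.3 CPM). The log2 fold change of -3.32 (SE 0.669, adjusted *p* = 0.049) was -0.48 without that library, so the call rests on it, and DESeq2 did not make the call. In the same library *Ank3-244* had 48 counts, *Ank3-231* had 36 and *Ank3-233* had 29, so the counts were spread over transcripts. Other members were also high there, by less: *Sptan1* (24.6 CPM), *Ank2* (25.6), *Sptb* (6.15), *Sptbn4* (5.13) and *Ank1* (5.13) had their highest neuronal level in that library, and *Sptbn1* (14.4) its highest WT level. Oligodendrocyte markers summed to 54.4 CPM in it and to 14.8 to 33.4 CPM in the other 5, and their part in the *Ank3* level was not tested.

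The other neuronal members did not pass the test. *Sptan1* had 13, 24 and 9 counts in WT and 24, 22 and 34 in KIN (-0.08, SE 0.336), and *Sptbn1* had 10, 14 and 4 against 22, 11 and 33 (0.34, SE 0.406). *Ank2* had 19, 25 and 5 counts in WT and 21, 21 and 17 in KIN (-0.57, SE 0.374). *Sptb* (0, 6 and 2 against 8, 3 and 8 counts, 0.34, SE 0.781) and *Ank1* (3, 5 and 1 against 2, 1 and 5 counts, -1.01, SE 0.938) were near the detection limit, and *Sptbn4* (2, 5 and 1 against 3, 2 and 2 counts) was below the filter. At this depth 3 counts corresponded to 1.93 to 4.05 CPM, close to the WT means of these sparse members (2.95 CPM for *Sptb*, 3.24 for *Ank1* and 2.88 for *Sptbn4*). None of the 7 neuronal markers tested was called by edgeR between genotypes, none had an unadjusted *p* under 0.05, and DESeq2 called 0 of them. Beside marker sums of 107 to 179 CPM, *Sptb*, *Sptbn4* and *Ank1* together reached 4.87 to 16.4 CPM in the neuronal libraries.

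Over all 18 libraries with fraction as covariate, 4 members were lower in KIN, beside 1.56% of the 13552 genes tested. These were *Sptbn4* (-2.03, SE 0.313, adjusted *p* = 8.34e-06), *Ank1* (-1.54, SE 0.356, adjusted *p* = 0.00452), *Sptb* (-1.26, SE 0.331, adjusted *p* = 0.016) and *Ank3* (-1.06, SE 0.314, adjusted *p* = 0.0402). Without WT neurons replicate 2 the value for *Ank3* was -0.25 and its call was lost. DESeq2 called 2 of the 4, *Sptbn4* and *Ank1*. *Ank2* changed by -0.78 (adjusted *p* = 0.00706), under the fold threshold, and *Sptan1* (-0.48) and *Sptbn1* (-0.49) were not called. Of the 9 neuronal markers, 6 were called lower in the same fit, with a median of -1.61, and DESeq2 also called 6. The 4 erythroid genes tested had a median of -0.49, with 0 called by edgeR and 1 called lower by DESeq2. The part of these RNAs in the members' changes was not tested.

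Whether the KIN effect itself differed between fractions was tested as an interaction. Between microglia and astrocytes edgeR called 0 members, with 0.819% of all genes called in either direction. *Sptbn1* was the 1 member with an unadjusted *p* under 0.05: its KIN effect in microglia minus that in astrocytes was -1.43 (SE 0.427, adjusted *p* = 0.0851). DESeq2 called it with its independent filtering but not without. Between neurons and astrocytes *Ank3* differed by -3.04 (SE 0.549, adjusted *p* = 0.0004, with 0.162% of genes called lower), which became -0.06 without WT neurons replicate 2. Between neurons and microglia *Sptbn1* differed by 2.23 (SE 0.521, adjusted *p* = 0.0319, with 0.0959% of genes called higher) and *Ank3* by -2.77 (SE 0.598, adjusted *p* = 0.0135, with 0.0443% called lower), the latter turning to 0.21 without WT neurons replicate 2. The call of *Sptbn1* was lost without any 1 of 9 libraries, at values of 1.89 to 2.59 over all 18 such fits. DESeq2 called neither difference of *Ank3*, and that of *Sptbn1* only with its independent filtering.

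Single transcripts were tested as well, except those of *Ank1*, none of which reached 5 reads in 2 libraries. Of 38 member transcripts tested in astrocytes, 8 were called lower in KIN, beside 5.86% of the 15548 transcripts tested, and 34 had a log2 fold change below 0. Without WT replicate 1 or 3 the count was 2, without KIN replicate 2 it was 5, and DESeq2 without its independent filtering called 2. The giant-exon forms of both ankyrins were among them. *Ank2-207* had 35, 24 and 37 counts in WT and 10, 5 and 11 in KIN (-1.76, SE 0.343, adjusted *p* = 9.93e-05), and *Ank2-208* had 30, 30 and 44 against 14, 9 and 12 (-1.44, SE 0.320, adjusted *p* = 0.00068). *Ank3-244* had 16, 10 and 25 counts in WT and 10, 1 and 7 in KIN (-1.39, SE 0.420, adjusted *p* = 0.0192), and *Ank3-233* had 8, 5 and 15 against 3, 1 and 3 (-1.83, SE 0.575, adjusted *p* = 0.0253). The others were *Sptbn4-201* (15, 3 and 20 against 2, 1 and 0 counts), *Sptb-202* (13, 5 and 14 against 3, 1 and 2), *Sptb-201* (27, 9 and 17 against 9, 5 and 5) and *Ank2-201* (20, 19 and 25 against 17, 4 and 7). Of the 8, *Ank3-233*, *Sptbn4-201* and *Sptb-202* passed the low-count filter only through the WT libraries, so their differences are no independent evidence of a change.

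Within *Ank3*, entries with and without the giant exon had different values, while the gene as a whole was not called. How reads were split among the transcripts of one gene is uncertain, as stated above. Transcripts with the giant exon, which begins with the sequence shown above for *Ank3-244*, made up 21.5 ± 8.11% of *Ank3* counts in WT astrocytes and 7.95 ± 3.52% in KIN (SD, n = 3 each), and the exact permutation test gave *p* = 0.1 (two-sided), the smallest value that 3 against 3 libraries allow. Their level was 9.51 ± 3.19 CPM in WT and 3.23 ± 1.49 CPM in KIN, while the rest of the gene stood at 35.2 ± 4.98 and 37.1 ± 1.96 CPM. *Ank3-231*, without that exon and the most counted transcript of the gene, had 36, 42 and 34 counts in WT and 63, 45 and 48 in KIN. It took 27.6 ± 2.66% of *Ank3* counts in WT and 49.4 ± 8.24% in KIN astrocytes, without overlap (exact permutation test, *p* = 0.1, two-sided, n = 3 each). Its own log2 fold change was 0.61 (SE 0.262, adjusted *p* = 0.129) and was not called. For *Ank2* the giant-exon share was 35.2 ± 3.03% in WT and 27.7 ± 4.30% in KIN (exact permutation test, *p* = 0.1, two-sided, n = 3 each), and both the giant-exon forms (22.0 ± 4.01 against 7.63 ± 1.04 CPM) and the rest (40.2 ± 3.99 against 20.1 ± 3.01 CPM) had lower levels in KIN.

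**Figure D5:**
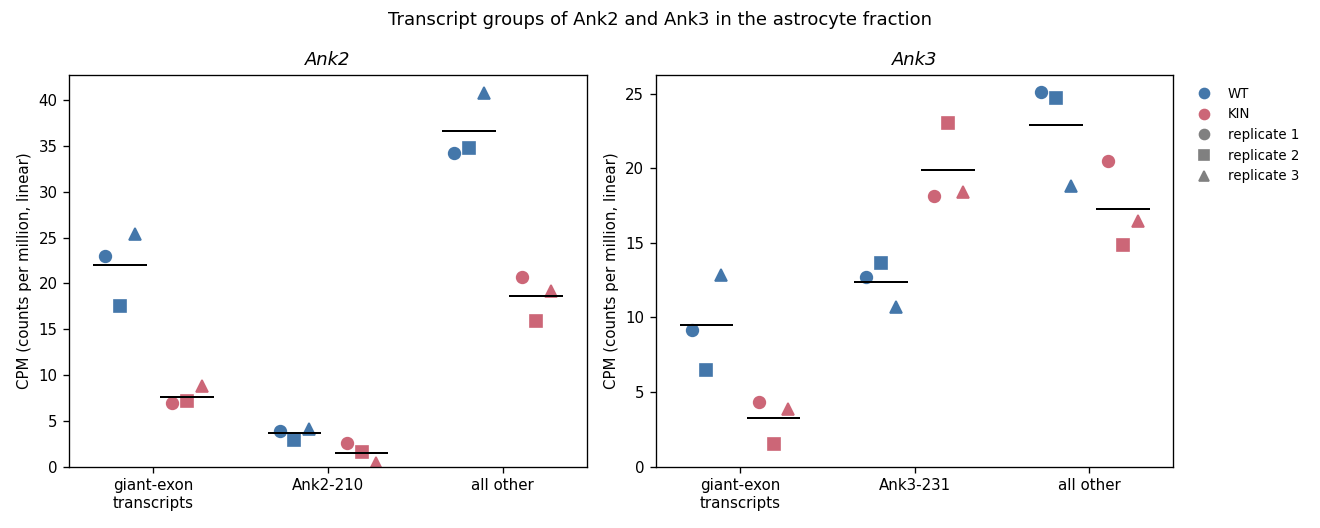
Levels (CPM) of the giant-exon transcripts of *Ank2* and *Ank3*, of *Ank2-210*, of *Ank3-231* and of the remaining transcripts in each astrocyte library, by genotype, with a line at the mean of 3 libraries. The *Ank3* giant-exon forms average 9.51 CPM in WT and 3.23 CPM in KIN, while *Ank3-231* averages 12.3 CPM in WT and 19.9 CPM in KIN.

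Outside astrocytes these forms were too sparse for such a description. In microglia the giant-exon transcripts had 3 to 15 counts per library for *Ank2* and 0 to 12 for *Ank3*, and edgeR called 0 of 15 member transcripts between genotypes, with 0.92% of all transcripts called in either direction. At an unadjusted *p* under 0.05 there were 8, from which nothing is read, since most of the 15 transcripts passed the low-count filter only through the WT libraries. In neurons it called 0 of 9, with 0.0181% of transcripts called, and 1 of the 9 (*Ank3-231*) had an unadjusted *p* under 0.05. DESeq2 also called 0 in both fractions. In WT neurons replicate 2, 86 of the 209 *Ank3* counts came from giant-exon transcripts, while the other 5 neuronal libraries had 0 to 3 such counts. The 6 long *Sptan1* transcripts share nearly all their sequence and held 11.1% to 14.9% of the gene's counts each, so how reads were split among them is uncertain.

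One *Ank2* entry behaved unlike the rest of its gene. *Ank2-210* is annotated as a retained-intron transcript and spans chr3:126719236-126722016. It took 5.82 ± 0.532% of *Ank2* counts in WT astrocytes, 22.0 ± 12.4% in WT microglia and 42.5 ± 15.3% in WT neurons, from 3 to 13 counts per library. In KIN its shares were 5.39 ± 3.69%, 34.3 ± 9.24% and 45.5 ± 14.8%. Of its 2781 bases, 254 (9.13%) lie in stretches of 25 bases that also occur in transcripts of other genes, in up to 393 transcripts. The window below, chr3:126721447-126721596 on the minus strand of GRCm39, lies within *Ank2-210*, and capitals mark the bases found in such stretches.
Ank2-210: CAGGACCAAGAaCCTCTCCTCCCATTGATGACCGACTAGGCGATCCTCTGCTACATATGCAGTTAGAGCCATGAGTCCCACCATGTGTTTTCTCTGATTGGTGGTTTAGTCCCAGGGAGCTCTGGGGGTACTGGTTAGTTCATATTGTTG
Nearly the whole window (149 of 150 bases) is in capitals. Without this entry, *Ank2* differed between neurons and microglia by -0.03 instead of 0.29. In microglia the rest of *Ank2* stood at 12.4 ± 4.81 CPM in WT and 7.05 ± 1.75 CPM in KIN (SD, n = 3 each). With protein-coding transcripts only, which leaves out this entry and other retained-intron entries of *Ank2*, its KIN effect there was -1.01 instead of -0.56. It was still not called.

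The share of each gene within its family was compared too. In astrocytes *Sptbn1* held 66.5 ± 13.4% of the β-spectrin counts in WT and 84.7 ± 1.38% in KIN, *Sptbn4* 19.0 ± 8.67% and 7.78 ± 0.881%, and *Sptb* 14.5 ± 5.51% and 7.55 ± 0.499% (SD, n = 3 each). Of the ankyrin counts, *Ank2* held 54.6 ± 4.19% in WT and 39.4 ± 1.68% in KIN, and *Ank3* 39.4 ± 3.77% and 57.5 ± 2.4%. For each of these genes the WT and KIN shares did not overlap (exact permutation test, *p* = 0.1, two-sided, n = 3 each), the smallest p this design allows, and shares within a family are not independent of each other. In microglia *Ank2* held 47.5 ± 2.74% in WT and 47.6 ± 1.78% in KIN, and *Sptbn1* 61.6 ± 11.7% and 70.2 ± 6.12%, with overlap, while *Ank3* held 45.3 ± 3.39% and 50.0 ± 1.87%, without overlap. In neurons *Sptbn4* held 17.0 ± 2.87% of the β-spectrin counts in WT and 8.75 ± 3.94% in KIN, without overlap but from 1 to 5 counts per library, and the shares of the other genes overlapped. In all, 18 such shares were compared, and none can pass a correction with this number of libraries.

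Partners of the members were read from 3 lists. Of the membrane skeleton partners (actin, adducin, protein 4.1, tropomodulin and tropomyosin genes and others), 2 of 17 tested were called lower in KIN astrocytes (6.42% of all genes were) and none was called higher. The 2 were *Add2*, encoding the adducin that caps actin and recruits spectrin to it (-2.69, SE 0.590, adjusted *p* = 0.0012), and *Epb41l1*, a protein 4.1 that strengthens the spectrin-actin junction (-1.10, SE 0.270, adjusted *p* = 0.00375). The list's median was -0.23, and DESeq2 called 1 of the 2. The actin gene *Actb* (0.93, adjusted *p* = 0.00374) and the tropomodulin gene *Tmod3* (0.97, adjusted *p* = 0.0218), named after their values were seen, passed the adjusted *p* upwards but not the fold threshold. The summed level of the list was 333 to 398 CPM in WT and 518 to 539 CPM in KIN astrocytes, without overlap, although 11 of the 17 genes had a log2 fold change below 0. Such a sum weights the most abundant genes. In microglia 1 of 16 was called lower, again *Add2* (-3.57, adjusted *p* = 0.022), with a median of -0.10, and DESeq2 did not call it. Over all fractions 1 of 17 was called lower, *Add2*, by both tools. Of the ankyrin partners, 4 of 11 were called lower in KIN astrocytes, of which DESeq2 called 2. Among them were *Kcnq3* (-1.06, adjusted *p* = 0.00449), a potassium channel subunit held at the initial segment by ankyrin-G, the sodium channel gene *Scn8a* (-2.56, adjusted *p* = 3.19e-06) and *L1cam*, an ankyrin-binding adhesion molecule (-1.49, adjusted *p* = 0.0365). The list's median was -1.06, against -0.0042 for all genes. In microglia 2 of 9 were called lower, beside 0.785% of all genes, among them *Nfasc*, the nodal adhesion molecule neurofascin (-1.58, adjusted *p* = 0.0462), and DESeq2 called 0. Over all fractions 2 of 11 were called lower, beside 1.56% of all genes, among them *Scn8a*. In neurons edgeR called 0 of 13 skeleton partners and 0 of 9 ankyrin partners, with 1 of each at an unadjusted *p* under 0.05, and DESeq2 called 0 of either. The calpain list, which holds spectrin-cutting proteases and their inhibitor calpastatin (*Cast*), had no call in any fraction. *Capn2* and *Cast* were tested in astrocytes and neurons, and *Capn1* too in microglia (0 of 2, 0 of 2 and 0 of 3, none with an unadjusted *p* under 0.05, and none called by DESeq2).

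The genes whose levels over the 18 libraries lay closest to each member were found by the Euclidean distance of centred log2 CPM among the genes with at least 10 counts on average. For *Sptan1* these were *Dlgap1* (distance 1.32), *Gpsm1* (1.38) and *Klc1* (1.38), against a median distance of 3.95 over 4997 genes. For *Sptb* they were *Mtcl1* (2.16), *Cntnap1* (2.51) and *Shank3* (2.56), and for *Sptbn1* they were *Tmem94* (1.71), *Pcdh1* (1.89) and *Arhgef17* (2.02). *Sptbn4* lay closest to *Spock2* (2.12), the neuronal marker *Eno2* (2.28) and *Pclo* (2.30). *Ank1* lay closest to *Tspoap1* (1.57), *Slc6a17* (1.98) and the member *Sptan1* (2.05), and *Ank2* to *Atp2a2* (1.59), *Pink1* (1.72) and *Tspoap1* (1.73). *Ank3*, with its single high neuronal library, had more distant neighbours, *Lrrc17* (2.46), *Kif1b* (2.77) and *App* (3.19). Among the members themselves *Sptan1* and *Ank1* were closest and *Sptbn1* and *Ank3* farthest apart (4.84).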

How the data were processed

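The panRNA libraries were made by the authors from total RNA after removal of ribosomal RNA, with polyadenylation of all molecules and unique molecular identifiers, and sequenced on an Illumina instrument. The authors trimmed reads with cutadapt (v4.6), aligned them to mm39 with Bowtie2 (v2.4.4) and counted them per transcript with HTSeq (v2.0.2) without strand. The deposited table holds raw counts for 116873 transcripts, and these raw counts were used. Its 36 other columns of per-sample values (TPM and a second scaling) and the 16 columns of the authors' own comparisons (fold changes and p-values from DESeq2) were not used. The 137 entries without a symbol, 0.0222% of counts, were kept under their own identifiers. Counts of all transcripts of a symbol were summed. Transcript-level fits used the entries as listed.

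Groups came from the sample labels. KIN was compared with WT within each fraction (6 libraries) and over all 18 libraries with fraction as covariate. Fractions were compared, and differences of KIN effects tested, in a fit of 6 group means. All tests were edgeR (v4.0.16) quasi-likelihood tests (glmQLFit and glmQLFTest) with TMM scaling in R (v4.3.3), on features that reached 5 reads in 2 or more of the fitted libraries. p-values were adjusted by Benjamini-Hochberg over all features tested. A call needed an adjusted *p* of at most 0.05 and a log2 fold change of at least 1 in size, and SE is the log2 fold change divided by the root of F. DESeq2 (v1.42.0, gene lists without its independent filtering), other scalings, filters, the replicate block and leaving out each library were the alternatives. The detection floor was 3 counts per library. It covers counting error only. Shares were compared by exact permutation tests. The scripts were first tested on simulated data.

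The members and the lists were chosen with earlier results of these data known. All 7 members were named, transcripts reaching 5 reads in 2 of the 18 libraries, up to 4 called genes per partner list and comparison, and the 3 nearest genes of each member. Not every called partner is reported here. Cell type markers were read as summed CPM. Annotation was GENCODE vM39 (GRCm39), which held 116159 of the transcripts.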

Additional observations from a re-analysis of the deposited data

Results flagged for a closer look

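The difference of the KIN effects between fractions passed its own test for 3 values. For *Ank3* the KIN effect in neurons minus that in astrocytes was -3.04 on the log2 scale, and minus that in microglia it was -2.77. Both rest on the single WT neuronal library with 209 *Ank3* counts, and without it they were -0.06 and 0.21. For *Sptbn1* the KIN effect in neurons minus that in microglia was 2.23: its WT and KIN counts were 10, 14 and 4 against 22, 11 and 33 in neurons, and 61, 18 and 33 against 6, 17 and 12 in microglia. Leaving out single libraries gave 1.89 to 2.59, and the call was lost without any 1 of 9 of the 18.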

How the results depend on the processing

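The count of members called, beside that reported, changed by more than 1.5 times as follows. Leaving out single libraries gave 2 to 4 members (reported 4) for KIN against WT in astrocytes, 0 to 4 (2) in microglia, 0 to 1 (1) in neurons, 3 to 5 (3) for neurons against astrocytes, 0 to 2 (1) for neurons against microglia, and 0 to 1 (0), 0 to 1 (1) and 0 to 2 (2) for the differences of KIN effects of microglia minus astrocytes, neurons minus astrocytes and neurons minus microglia. Member transcripts then numbered 2 to 12 (8) in astrocytes, outside 1.5 times without WT replicates 1 or 3 or KIN replicate 2, 0 to 5 (0) in microglia without WT replicate 2, and 0 to 1 (0) in neurons without WT replicate 1. DESeq2 called 0 members in neurons, 2 over all fractions, 0 for neurons against microglia, and 1, 0 and 1 for the 3 differences of KIN effects. It gave no adjusted *p* to 6 of 7 members in microglia, to 20 of 38 astrocyte transcripts and to 12 of 15 microglia transcripts, which are not lost calls. Without its independent filtering, a setting added after seeing the data, it called 2 astrocyte transcripts, 0 members in microglia, 0 in neurons, 2 over all fractions, 0 for neurons against microglia, and 0 and 0 for neurons minus astrocytes and neurons minus microglia. Without a low-count filter there were 4 astrocyte transcripts, 4 microglial members, 3 neuronal transcripts and 0 members for neurons against microglia. With a mean of at least 10 counts there were 5 astrocyte transcripts, and 0 members in neurons, 1 over all fractions and 0 for neurons minus microglia. DESeq2 size factors gave 1 for neurons minus microglia, and protein-coding transcripts only gave 4 in microglia and 1 for neurons minus microglia. The adjusted *p* alone called 5 for neurons against astrocytes and 2 for neurons against microglia, where WT libraries only called 5 in the former and KIN libraries only 2 in the latter. Leaving out the fraction covariate gave 0 over all fractions. Removing *Ank2-210* from *Ank2*, also added after seeing the data, left 0 in neurons, where the reported call of *Ank3* had an adjusted *p* of 0.049. The causes of these shifts were not tested.

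Over all fractions, *Ank3* lost its call without microglia WT replicate 3 or KIN replicate 1, or without neurons WT replicate 2 or any KIN neuronal library. *Sptb* lost it without astrocytes WT replicate 1, KIN replicates 1 or 3, or microglia WT replicate 1. Direction changed for *Sptan1* in neurons (0.10 without a filter, 0.10 with 18 libraries in one fit, -0.22 to 0.26 with single libraries left out, above 0 without WT replicate 2 or KIN replicate 1) and *Sptb* there (-0.26 to 1.54, the lowest without WT replicate 1). For neurons against astrocytes it changed for *Ank3* in WT libraries (0.85) and *Sptb* in KIN libraries (0.49). For neurons against microglia it changed for *Sptbn4* (0.028 with a mean of 10 counts, 0.18 with protein-coding transcripts, 0.70 in KIN libraries), *Ank2* (-0.0026 with protein-coding transcripts, -0.027 without *Ank2-210*), *Sptan1* (-0.14), *Sptb* (-0.28) and *Sptbn1* (-0.42) in WT libraries, and *Ank3* (-0.34 in KIN libraries, -0.43 to 1.33 with single libraries left out, the lowest without WT neurons replicate 2). Among differences of KIN effects it changed for *Ank1* in microglia minus astrocytes (-1.88 to 0.056, the highest without microglia KIN replicate 1), and in neurons minus microglia for *Ank2* (-0.17 to 0.55, below 0 without microglia WT replicate 1 or neurons WT replicate 3) and *Ank3* (-3.33 to 0.21, the highest without neurons WT replicate 2). Deviations of WT and KIN libraries with the same replicate number correlated between -0.141 and 0.0944, and those of same-numbered libraries of different fractions between -0.0666 and 0.252. Since the labels do not say that a number marks a shared mouse or pair, and most correlations were under 0.1, the numbers were not taken to pair the samples. A replicate block gave 4 members in astrocytes, 2 in microglia, 0 in neurons, 3 over all fractions, 0 for neurons against microglia and 1 for neurons minus microglia. The 7 calls for astrocytes against microglia held with each library left out in turn, but 5 remained with WT libraries only, where *Sptan1* (0.943) and *Sptbn4* (0.936) fell under the fold threshold. With a mean of at least 10 counts 5 of 5 members tested were called.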
